A study of Rattus norvegicus with 4 samples.

Results

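Dusp1, Dusp5, Dusp6 and Errfi1 are negative regulators of growth factor signalling. They were measured in Rat1 fibroblasts that did or did not express Omomer, before and after serum stimulation. All probe sets of the array whose platform annotation gives 1 of these symbols and no other were taken, which gave 9 of the 8799 probe sets on the array, for 4 of 4736 named genes. Dusp1 and Errfi1 had 3 probe sets each, Dusp6 had 2 and Dusp5 had 1. The probe sets of a gene are numbered here by their mean signal over the arrays, so that probe set 1 is the brightest.

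Rat1 is an immortalized line of rat fibroblasts. Rat1-Omomer cells carried a retrovirus for Omomer, which is the Myc-interfering protein Omomyc joined to a tamoxifen-inducible form of the oestrogen receptor, and Rat1-control cells carried a control retrovirus. Both were stable infections, and the level of Omomer itself was not measured on the array. The 4 conditions, Rat1-Omomer cells 90 min after serum, Rat1-Omomer cells at 0 min, Rat1-control cells 90 min after serum and Rat1-control cells at 0 min, had 1 Affymetrix rat array each. All 4 cultures had spent 48 h in 0.1% serum and were then moved to 10% serum or harvested at that moment, and all 4, the controls included, received the ligand 4-OHT. The sample labels place 4-OHT throughout the starvation, whereas the methods place it only shortly before serum, so the length of exposure is not settled. For 2 samples, Rat1-Omomer at 0 min and Rat1-control at 90 min, 1 label field names the other virus, and the titles, which give 1 sample per condition, were followed. Every comparison below except that of stimulated Rat1-Omomer with starved Rat1-control cells uses 1 or both of these arrays. With 1 array per condition there is no replicate, and the variation between cultures is unknown for every difference below. Bulk RNA was used, so that fewer cells expressing a gene and less RNA per cell cannot be told apart.

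Values are average differences, the mean brightness of the perfect match probes of a probe set over that of their mismatch probes, and can be negative. A floor of 1047, which is 2 times the noise SD of 523 estimated from the negative values, was set under them. A fold is the ratio of 2 floored values, and 3-fold is the threshold of the study. A fold with 1 value under the floor is a lower bound ("at least"), and with both under it there is none. Between 38.5% and 42.8% of the 8740 probe sets without array controls lay above the floor on an array. The Rat1-Omomer 90 min array stood apart: its median was 497, against 601 to 668.5 on the other arrays, and its own noise gave a floor of 1226, against 897 to 1091. Folds of different probe sets of 1 gene had an SD of 0.73 to 0.75 on the log2 scale in comparisons that use this array, against 0.29 to 0.31 in the others, over 389 genes. This within-gene SD is the only spread available and holds no variation between cultures. Many of the low values of that array lay in 5 series of EST probe sets (1744 probe sets), and none of the 9 member probe sets belongs to them. The part of this array's wider spread in the folds that use it was not tested, since no other array holds that condition. Of 31 probe sets for fibroblast markers, 26 were above the floor on all 4 arrays. All epithelial (6), endothelial (3) and skeletal muscle (4) marker probe sets were below it on every array, and of 9 for blood cells and macrophages 4 passed it on at least 1 array.

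Serum activates the Ras, Raf, MEK and ERK kinase cascade in fibroblasts, together with the stress kinases JNK and p38, and these kinases switch on immediate early genes within minutes. Part of that response shuts the cascade down again. The dual specificity phosphatases remove phosphate from threonine and tyrosine of MAP kinases: Dusp1 (MKP-1) is nuclear and acts on JNK, p38 and ERK, Dusp5 is nuclear and prefers ERK, and Dusp6 (MKP-3) is cytoplasmic and prefers ERK. Errfi1 (Mig-6, also known as gene 33) binds the kinase domain of the EGF receptor and ErbB2 and blocks it, so it acts above the cascade.

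The promoters of the 4 genes are shown because serum and stress reach such genes through short sites near the transcription start, and because Omomyc interferes with a factor that binds E-boxes. Each line holds 300 bases of RefSeq sequence (rat assembly GRCr8, plus strand, from 250 bases before the start site to 50 after it), and capitals mark matches to the motifs named below.
Dusp1 (chr10:17184603-17184902): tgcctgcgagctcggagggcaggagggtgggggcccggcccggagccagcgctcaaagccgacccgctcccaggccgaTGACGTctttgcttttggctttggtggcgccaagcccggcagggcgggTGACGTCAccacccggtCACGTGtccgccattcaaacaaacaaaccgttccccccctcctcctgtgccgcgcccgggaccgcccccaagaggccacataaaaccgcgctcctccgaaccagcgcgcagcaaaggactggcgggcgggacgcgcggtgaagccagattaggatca
Dusp5 (chr1:262543524-262543823): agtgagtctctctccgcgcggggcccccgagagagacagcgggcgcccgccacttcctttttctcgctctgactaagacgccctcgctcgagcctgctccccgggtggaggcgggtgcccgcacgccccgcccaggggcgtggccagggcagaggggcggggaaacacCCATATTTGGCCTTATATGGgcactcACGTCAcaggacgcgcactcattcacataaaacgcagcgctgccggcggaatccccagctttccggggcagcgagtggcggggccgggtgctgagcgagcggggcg
Dusp6 (chr7:35979354-35979653): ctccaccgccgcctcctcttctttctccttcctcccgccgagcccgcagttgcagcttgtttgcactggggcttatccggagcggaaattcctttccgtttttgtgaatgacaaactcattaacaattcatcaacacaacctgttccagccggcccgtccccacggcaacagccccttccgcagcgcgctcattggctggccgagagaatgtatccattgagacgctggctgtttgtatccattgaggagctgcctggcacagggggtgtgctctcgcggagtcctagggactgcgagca
Errfi1 (chr5:166606591-166606890): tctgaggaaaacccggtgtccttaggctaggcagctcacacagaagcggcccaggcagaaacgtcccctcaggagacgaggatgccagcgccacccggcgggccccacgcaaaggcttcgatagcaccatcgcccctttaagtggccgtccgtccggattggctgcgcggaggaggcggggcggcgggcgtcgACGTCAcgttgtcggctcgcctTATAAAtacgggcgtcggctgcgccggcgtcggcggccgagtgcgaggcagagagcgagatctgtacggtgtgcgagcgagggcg
For Dusp6 the RefSeq gene starts at 35979502, inside the printed window, so that more of its bases may be transcribed.

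Both strands were searched for the E-box CACGTG, the cAMP response element TGACGTCA, the AP-1 site TGANTCA, the TATA box TATAAA and the CArG box of serum response factor. The 6-base core TGACGT of the cAMP response element, part of the full site, was added after the promoters had been read. The Dusp1 promoter held an E-box 107 bases before the start and a full cAMP response element 124 bases before it, with a further core 172 bases before it. The Dusp5 promoter held a pair of adjoining CArG boxes, CCATATTTGG and CCTTATATGG, which begin 82 and 72 bases before the start, and a core on the minus strand 56 bases before it. The Errfi1 promoter held a TATA box 35 bases before the start and a core on the minus strand 57 bases before it. None of these letters stood in the Dusp6 window, and no member had the AP-1 letters. Of 33469 rat promoters of the same length, 6.42% held the E-box, 1.83% the full cAMP response element, 7.94% its core, 7.33% the AP-1 site, 14.2% the TATA box and 1.64% a CArG box. The member windows had a GC content of 57.7% (Dusp6) to 69.0% (Dusp5), against a median of 51.7% over all promoters, and a match is a description of the sequence and not a bound site.

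Of the 9 probe sets, 8 were above the floor on at least 1 array and 6 on all 4. The exceptions were all of Errfi1: probe set 1 was under it on 1 array, probe set 2 on 2 arrays and probe set 3 on all 4. The levels below are deposited average differences and are compared within a probe set only, since brightness between probe sets depends on the probes.

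Dusp1, which the starved Rat1-control cells already expressed, was highest in stimulated Rat1-Omomer cells and lowest in starved Rat1-Omomer cells. Probe set 1 read 46767 and 11363 in Rat1-Omomer cells at 90 and 0 min, against 15076 and 24248 in Rat1-control cells. Probe set 2 read 43122 and 4340 in Rat1-Omomer cells at 90 and 0 min, against 6787 and 15893 in Rat1-control cells at the same times. Probe set 3 read 32065 and 4022 in Rat1-Omomer cells at 90 and 0 min, against 7344 and 15851 in Rat1-control cells. All 3 probe sets thus gave the same order: Rat1-Omomer at 90 min, Rat1-control at 0 min, Rat1-control at 90 min and Rat1-Omomer at 0 min. Each step of that order was larger than 1 within-gene SD, and the smallest, between Rat1-control at 90 min and Rat1-Omomer at 0 min, was 1.33-fold, 1.56-fold and 1.83-fold in probe sets 1, 2 and 3.

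Dusp5 had low values in both starved cell lines and high values in both stimulated ones. Its probe set read 33896 and 2296 in Rat1-Omomer cells at 90 and 0 min, against 23205 and 3806 in Rat1-control cells. The step between the stimulated cell lines, 1.46-fold, was within 1 within-gene SD of that comparison, a factor of 1.66, whereas the step between the starved ones, 1.66-fold, was over the factor of 1.22 that holds there.

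Dusp6 was highest in stimulated Rat1-control cells and differed by at most 1.41-fold among the other 3 conditions. Probe set 1 read 10712 and 11638 in Rat1-Omomer cells at 90 and 0 min, against 26225 and 15096 in Rat1-control cells. Probe set 2 read 6665 and 5811 in Rat1-Omomer cells at 90 and 0 min, against 18762 and 7085 in Rat1-control cells. Both probe sets placed Rat1-control at 90 min first and Rat1-control at 0 min second. In probe set 2 the second place rested on a step of 1.06-fold over Rat1-Omomer at 90 min, within 1 within-gene SD. The order of both Rat1-Omomer arrays differed between the probe sets, by steps of 1.09-fold and 1.15-fold that were within 1 within-gene SD.

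Errfi1 probe set 1 followed the order of Dusp5. It read 18009 and 779 in Rat1-Omomer cells at 90 and 0 min, the second of these under the floor, against 12715 and 2345 in Rat1-control cells. Probe set 2 was dimmer and was highest in stimulated Rat1-control cells: it read 2000 and -1194 in Rat1-Omomer cells at 90 and 0 min, against 5161 and 57 in Rat1-control cells, so that both starved values were under the floor. Probe set 3 read 219 and 173 in Rat1-Omomer cells and 365 and 301 in Rat1-control cells at 90 and 0 min, all under the floor, and enters no fold. Both detected probe sets read higher at 90 min than at 0 min in both cell lines, but they placed the stimulated cell lines in opposite order.

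**Figure D1:**
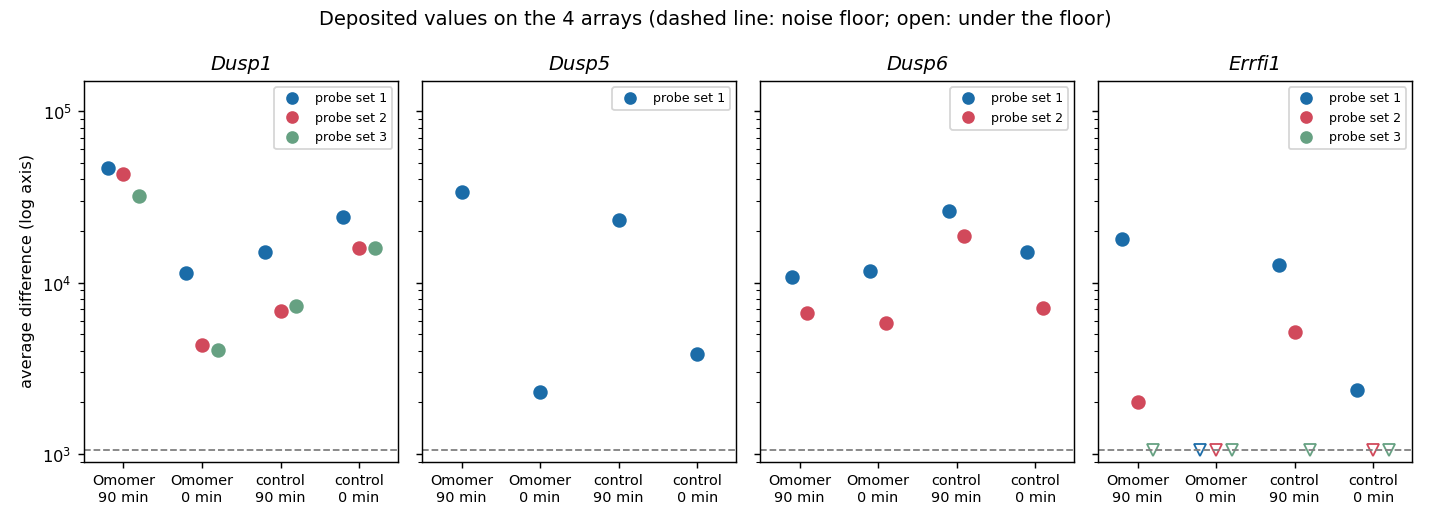
Average difference (log axis, deposited units) of each probe set of Dusp1, Dusp5, Dusp6 and Errfi1 on the 4 arrays, with 1 array per condition and no error bars; the dashed line is the floor of 1047 and open triangles on it are values under it. Dusp1 is highest in Rat1-Omomer cells at 90 min and lowest in the same cells at 0 min, Dusp5 and Errfi1 probe set 1 are high at 90 min in both cell lines, and Dusp6 is highest in Rat1-control cells at 90 min.

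The first question was how serum moved these genes in Rat1-Omomer cells. Dusp5, Errfi1 and Dusp1 were higher after 90 min, and Dusp6 differed from its starved level by less than 1 within-gene SD, a factor of 1.66. Dusp5 was 14.8-fold higher and was the 8th highest of the 4213 probe sets with a fold. Errfi1 probe set 1 was at least 17.2-fold higher (the 7th highest) and probe set 2 at least 1.91-fold higher. Dusp1 was 4.12-fold, 9.94-fold and 7.97-fold higher in probe sets 1, 2 and 3, with a mean log2 fold of 2.78 ± 0.66 (SD over 3 probe sets of the same pair of arrays). Dusp6 was 1.09-fold lower in probe set 1, which becomes 1.24-fold higher when the arrays are scaled to the same median, and 1.15-fold higher in probe set 2. Of the 8 probe sets with a fold, 5 were called, that is at least 3-fold, higher and none lower, where 2.9% of all probe sets were called higher and 9.64% lower. The median log2 fold of all probe sets was 0.09, and median scaling moved it to 0.44.

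The same comparison in Rat1-control cells gave a different picture for Dusp1 and Dusp6. Dusp5 was 6.10-fold higher at 90 min than at 0 min, the 23rd highest of 3987 probe sets. Errfi1 was 5.42-fold higher in probe set 1 and at least 4.93-fold higher in probe set 2. Dusp6 was 1.74-fold and 2.65-fold higher in probe sets 1 and 2, a mean log2 fold of 1.10 ± 0.43 (SD over 2 probe sets). Dusp1 was lower at 90 min in all 3 probe sets, by 1.61-fold, 2.34-fold and 2.16-fold, a mean log2 fold of -1.01 ± 0.29 (SD over 3 probe sets). Each of these folds was larger than the factor of 1.24 that 1 within-gene SD makes here. Of 8 probe sets, 3 were called higher and none lower, where 1.93% of all probe sets were called higher and 1.81% lower.

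Omomer was then set against control at each time. After 90 min of serum, Dusp1 was higher in Rat1-Omomer cells in all 3 probe sets, by 3.10-fold, 6.35-fold and 4.37-fold, with a mean log2 fold of 2.14 ± 0.52 (SD over 3 probe sets). The 6.35-fold of probe set 2 was the 6th highest of 4051. Dusp6 was lower in Rat1-Omomer cells, by 2.45-fold in probe set 1 and 2.82-fold in probe set 2, a mean log2 fold of -1.39 ± 0.14 (SD over 2 probe sets). The probe sets of Errfi1 disagreed, with probe set 1 1.42-fold higher and probe set 2 2.58-fold lower, and Dusp5 was 1.46-fold higher, within 1 within-gene SD. Of 8 probe sets, 3 were called higher and none lower, where 2.22% of all were called higher and 8.57% lower, and the median log2 fold of all was 0.18.

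In starved cells, every member with a fold was lower in Rat1-Omomer than in Rat1-control cells. Dusp1 was 2.13-fold, 3.66-fold and 3.94-fold lower in probe sets 1, 2 and 3, with a mean log2 fold of -1.65 ± 0.48 (SD over 3 probe sets). Probe sets 3 and 2 were the 6th and 9th lowest of 3982. Errfi1 probe set 1 was at least 2.24-fold lower, and Dusp5 was 1.66-fold lower. Dusp6 was 1.30-fold and 1.22-fold lower, close to the factor of 1.22 that 1 within-gene SD makes. Of 7 probe sets, 2, both of Dusp1, were called lower and none higher, where 0.502% of all were called lower and 0.251% higher. Of the comparisons made here, this one had the smallest shares called and the smallest within-gene SD, 0.29 on the log2 scale. The median log2 fold of all probe sets was 0.01.

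The study took Rat1-control cells at 0 min as its common reference. Against it, stimulated Rat1-Omomer cells had 8.91-fold higher Dusp5, and Errfi1 was 7.68-fold higher in probe set 1 and at least 1.91-fold higher in probe set 2. Dusp1 was 1.93-fold, 2.71-fold and 2.02-fold higher, below the 3-fold threshold in all 3 probe sets, although probe set 2 passed it, at 3.61-fold, when the arrays were scaled to the same median, and Dusp6 was 1.41-fold and 1.06-fold lower. Only 2 of 8 probe sets were called higher, those of Dusp5 and the brightest of Errfi1, and none lower, where 2.79% of all were called higher and 9.94% lower. The probe sets of Dusp1 read 4022 to 11363 in starved Rat1-Omomer cells, against 15851 to 24248 in starved Rat1-control cells, so the fold of Dusp1 in stimulated Rat1-Omomer cells depends on which starved culture stands below it. The 5 comparisons share arrays, and their values stand side by side with no test between them.

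**Figure D2:**
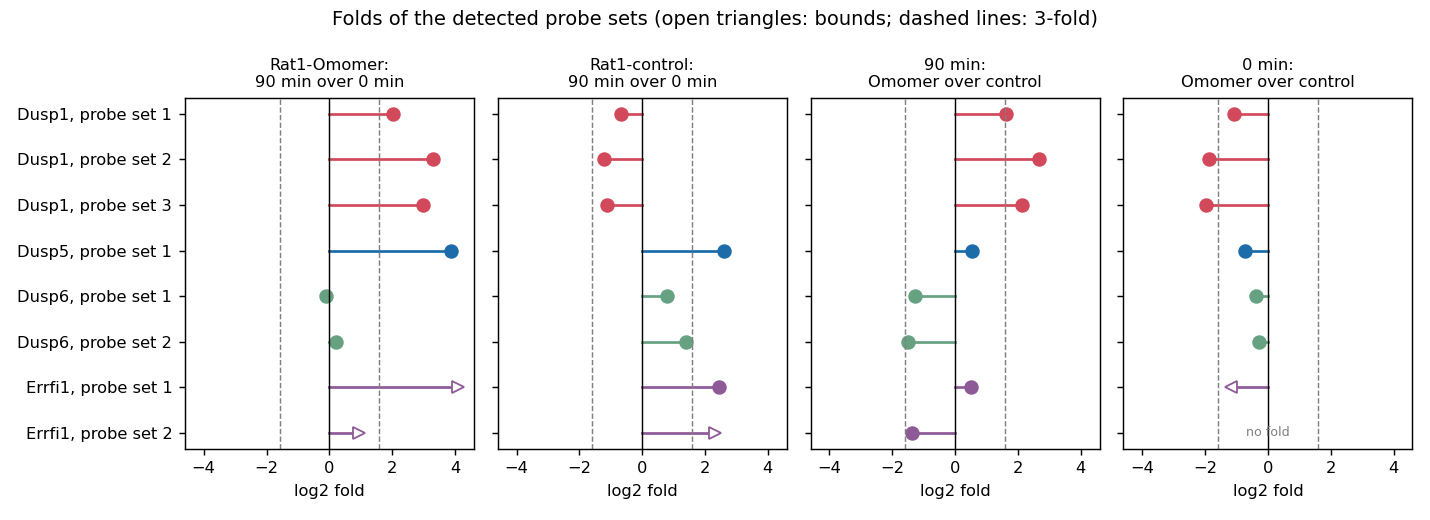
Log2 fold of each of the 8 detected probe sets in 4 comparisons (from left: serum in Rat1-Omomer cells, serum in Rat1-control cells, Omomer over control after 90 min, Omomer over control before serum); dashed lines mark 3-fold, open triangles are lower bounds from a value under the floor, and there are no error bars with 1 array per condition. The 3 probe sets of Dusp1 lie right of 0 in Rat1-Omomer cells (4.12-fold to 9.94-fold) and left of it in Rat1-control cells (1.61-fold to 2.34-fold lower).

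How far the serum response differed between the cell lines was expressed as the serum fold in Rat1-Omomer cells over that in Rat1-control cells, a value from 4 arrays with no error. For Dusp1 the ratio was 6.62, 23.3 and 17.2 in probe sets 1, 2 and 3. Among the 3767 probe sets with a fold in both cell lines, probe sets 2 and 3 ranked 1st and 2nd and probe set 1 ranked 24th, and within the 2603 that passed the floor on every array they ranked 1st, 2nd and 19th. The 3 probe sets read the same mRNA on the same arrays and are 1 gene, not 3 observations. Both times entered the ratio, with a mean log2 fold between the cell lines of 2.14 at 90 min and -1.65 at 0 min. For Dusp5 the ratio was 2.42, and for Errfi1 probe set 1 it was at least 3.17. For Dusp6 it was the other way, 1.89-fold and 2.31-fold lower in Rat1-Omomer cells. For Errfi1 probe set 2 it could not be determined, because both starved values were under the floor.

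**Figure D3:**
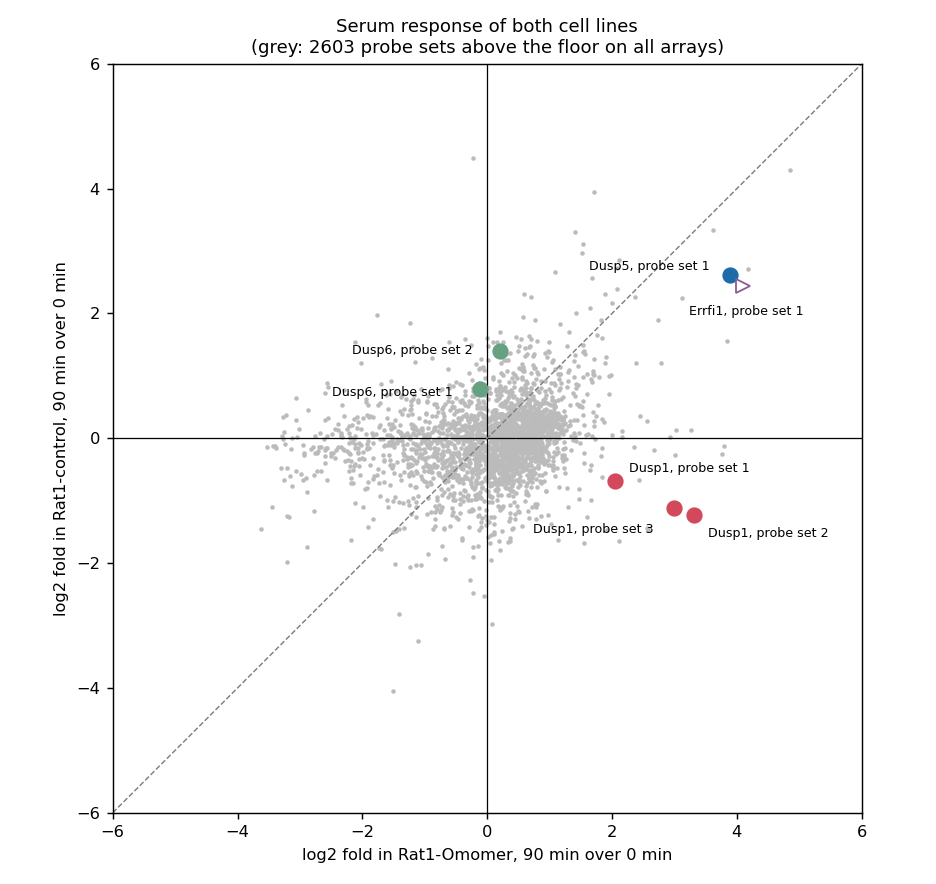
Log2 serum fold (90 min over 0 min) in Rat1-Omomer cells (horizontal) and in Rat1-control cells (vertical), with grey points for the 2603 probe sets that passed the floor on each array, coloured points for the members, and an open triangle for Errfi1 probe set 1, whose horizontal value is a lower bound; points on the dashed line have equal folds. The probe sets of Dusp1 lie in the lower right, higher with serum in Rat1-Omomer and lower in Rat1-control cells, those of Dusp6 close to the vertical axis, and Dusp5 and Errfi1 in the upper right.

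The patterns of the members over the 4 arrays were compared by the root mean square distance between their log2 floored values, each centred on its own mean; 4 points are few, and all distances share the same 4 arrays. Dusp5 and Errfi1 probe set 1 lay 0.15 apart. With the floor applied, neither had any of 2445 other candidate probe sets as close. For Errfi1 probe set 1 the lead was small, 0.155 for Dusp5 against 0.162 for Id3, a gene described below. The starved Rat1-Omomer value of Errfi1 probe set 1, 779, was under the floor and was raised to it. All distances of Errfi1 probe set 1 thus depend on the floor, and whether Dusp5 stays its nearest with another floor was not tested. The 3 probe sets of Dusp1 lay 0.20 to 0.49 from each other and both of Dusp6 0.24. Errfi1 probe sets 1 and 2 lay 1.14 apart, and probe set 2 was nearer to Dusp6 probe set 2, at 0.42. Both starved values of Errfi1 probe set 2, -1194 in Rat1-Omomer and 57 in Rat1-control cells, were raised to the floor too. The distances of Errfi1 probe set 2 thus depend on the floor as well. The brightest probe sets of Dusp1 and Dusp6 lay 1.08 apart, and those of Dusp1 and Dusp5 1.35.

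The genes most like each member were taken by the same measure, from probe set 1 of each member only. For Dusp1 they were Tgfb3 (distance 0.09), a growth factor of the TGF-β family, Foxm1 (0.16), a transcription factor of the cell cycle, and Egr2 (0.17), an immediate early zinc finger factor. Dusp1 probe sets 2 and 3 lay farther from probe set 1 than these genes, at 0.49 and 0.38. Tgfb3 read 4115 and 438 in Rat1-Omomer cells at 90 and 0 min, against 1489 and 2012 in Rat1-control cells. Egr2 read 4656 and 1472 in Rat1-Omomer cells at 90 and 0 min, against 1589 and 3145 in Rat1-control cells. The starved Rat1-Omomer values of Tgfb3 and Foxm1 were under the floor, as were both starved values of C9h6orf141 named next. For Dusp5 and for Errfi1 probe set 1 the 3 nearest were the same genes: Id3 (0.27 and 0.16), an inhibitor of basic helix-loop-helix factors, Pmepa1 (0.35 and 0.37), a membrane protein induced by TGF-β, and C9h6orf141 (0.28 and 0.43). Id3 read 59972 and 3306 in Rat1-Omomer cells at 90 and 0 min, against 54097 and 8230 in Rat1-control cells. For Dusp6 they were Lamc1 (0.13), a laminin chain, Hmox1 (0.15), heme oxygenase, and Hsp90b1 (0.17), a chaperone of the endoplasmic reticulum. Lamc1 read 5689 and 6227 in Rat1-Omomer cells at 90 and 0 min, against 14124 and 6536 in Rat1-control cells.

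The list of other dual specificity phosphatases and feedback inhibitors had 10 of its 25 genes on the array, with 12 probe sets. Of the 9 with a fold in Rat1-Omomer cells none was called higher and 1 lower, and the median log2 fold was -0.12, against 0.09 over all probe sets. Of the 7 in Rat1-control cells none was called higher and 1 lower, with a median of 0.17 against -0.07. Over all probe sets in Rat1-Omomer cells, 2.9% were called higher and 9.64% lower, against 1.93% and 1.81% in Rat1-control cells, so that 1 lower call is near what a list of this size gives in Rat1-Omomer cells and is no result about the list. The call in Rat1-Omomer cells was Pebp1, which restrains Raf, at 3392 at 90 min and 15668 at 0 min (4.62-fold lower). Its second probe set read 11399 at 90 min and 10694 at 0 min, so that the probe sets of Pebp1 disagreed. The call in Rat1-control cells was Ier3, an early response gene, 3.81-fold lower in 1 probe set (2709 at 90 min, 10327 at 0 min) and 2.66-fold lower in the other (5600 and 14896). Ptpn7, a phosphatase that binds ERK and p38, was 2.46-fold higher with serum in Rat1-Omomer cells (3643 at 90 min, 1480 at 0 min). Dusp4 and Dusp7, further phosphatases of MAP kinases on the array, are given although they were picked after their values were seen: Dusp4 was under the floor on all arrays, and Dusp7 passed it only in starved Rat1-Omomer cells, at 1139.

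For the kinases on which these phosphatases act and their activators the counts were also near those shares. Of 18 probe sets of the ERK cascade with a fold, none was called higher in either cell line. In Rat1-Omomer cells 2 were called lower, Sos1 (4.69-fold, in an EST series) and 1 probe set of Grb2 (3.79-fold, with another 2.92-fold higher), both of which act upstream of Ras. In Rat1-control cells none was, and the medians were 0.24 and -0.09 in Rat1-Omomer and Rat1-control cells. Mapk6 (ERK3) was higher with serum, 1.71-fold in Rat1-Omomer cells, and 2.18-fold and 2.50-fold in its 2 probe sets in Rat1-control cells. Of the JNK and p38 list, 1 of 14 probe sets was called higher in Rat1-Omomer cells, Map2k6, which activates p38, at least 3.22-fold (3374 at 90 min, 208 at 0 min), and none of 11 was called in Rat1-control cells. The medians of that list were 0.29 in Rat1-Omomer and -0.11 in Rat1-control cells. Mapk14, p38α itself, was between 1.30-fold lower and 1.38-fold higher in Rat1-Omomer cells and between 1.40-fold lower and 1.15-fold higher in Rat1-control cells in the probe sets named by the rule. Its further probe sets with a fold ranged from 1.57-fold lower to 1.62-fold higher in Rat1-Omomer cells. In Rat1-control cells they were up to 1.52-fold lower.

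Among the receptors that Errfi1 inhibits, their relatives and their ligands, 1 ligand had the highest serum fold in both cell lines. Hbegf, heparin-binding EGF-like growth factor, read 24371 and 605 in Rat1-Omomer cells at 90 and 0 min, a fold of at least 23.3, and 20822 and 665 in Rat1-control cells, a fold of at least 19.9. Nrg1, a ligand of the ErbB3 and ErbB4 receptors, was called higher in Rat1-control cells, 3.84-fold in 1 probe set (5231 at 90 min, 1361 at 0 min) and at least 3.17-fold in another. The same probe sets read 1734 and 1275 in Rat1-Omomer cells at 90 min, against 5231 and 3316 in Rat1-control cells at 90 min. Erbb2, a receptor that Errfi1 binds, was lower with serum. It read 1001 and 4199 in Rat1-Omomer cells at 90 and 0 min (at least 4.01-fold lower) and 1743 and 4103 in Rat1-control cells (2.35-fold lower). In all, 1 of 6 probe sets of this list was called higher and 1 lower in Rat1-Omomer cells, and 3 of 8 higher and none lower in Rat1-control cells, where all probe sets gave 2.9% higher and 9.64% lower for Rat1-Omomer, and 1.93% and 1.81% for Rat1-control cells. The 3 calls in Rat1-control cells came from 2 genes.

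Immediate early genes, the class to which Dusp1 and Errfi1 are often counted, held calls in both directions. Of 32 probe sets in Rat1-Omomer cells 9 were called higher and 3 lower (1 outside the EST series), with a median log2 fold of 0.79, and of 33 in Rat1-control cells 3 were called higher and 6 lower, with a median of -0.35. Between the cell lines at 90 min 6 of 31 were called higher and 4 lower in Rat1-Omomer cells (1 of these outside the EST series, median 0.96), and at 0 min none of 30 higher and 4 lower (median -0.47). Over all probe sets 2.9% were called higher and 9.64% lower for serum in Rat1-Omomer cells, and 1.93% and 1.81% for serum in Rat1-control cells. Between the cell lines they were 2.22% and 8.57% at 90 min, and 0.251% and 0.502% at 0 min. The 3 lower calls of the list for serum in Rat1-Omomer cells are thus near the share of all probe sets. At 0 min the 4 lower calls of 30, of Fos and Jun, were above the share of 0.502%. Nr4a3, an orphan nuclear receptor, read 40343 and 559 in Rat1-Omomer cells at 90 and 0 min (at least 38.5-fold higher) and 6790 and 289 in Rat1-control cells (at least 6.49-fold higher). A dimmer probe set of Nr4a3 read 1729 and 359 in Rat1-Omomer cells at 90 and 0 min, against 991 and 1984 in Rat1-control cells, so that in Rat1-control cells it was lower at 90 min. Fos, a subunit of AP-1, was 7.85-fold lower in Rat1-control cells at 90 min in 1 probe set (1308 at 90 min, 10262 at 0 min) and at least 8.32-fold lower in another. Its brightest probe set was 3.10-fold lower there (5588 at 90 min, 17317 at 0 min). Fosl1, another AP-1 subunit, was at least 11.4-fold higher in Rat1-control cells. Ptgs2, cyclooxygenase 2, was 14.3-fold higher with serum in Rat1-Omomer cells in 1 probe set and 6.87-fold higher in a brighter one. Zfp36 and Junb were 6.83-fold and 4.33-fold lower in Rat1-Omomer cells by probe sets of the EST series, but their other probe sets were 1.82-fold higher (Zfp36, 14362 at 90 min and 7891 at 0 min) and 1.91-fold higher (Junb, 17216 and 9002), so that the probe sets of both genes disagreed.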

How the data were processed

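The deposited values are intensities: average differences that the authors computed with MAS 4.0, linear, with negative ones left in. The number of arrays, 1 per condition, limits the precision. Samples were grouped by their titles. The 59 array controls were left out. Of 8740 probe sets, 7006 had 1 symbol in the platform annotation, 308 several and 1426 none. The noise SD was 1.4826 times the median size of negative values. The authors' rules for the fold inside MAS were not used. No test was possible without replicates, and the calls were tested on simulated data.

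The members and lists were chosen with earlier results of these data known. Named genes were taken from all member probe sets, the 2 highest and 2 lowest probe sets of each list in the serum comparison of each cell line with at least 3 times the floor on 1 array, and the 3 genes most like the brightest probe set of each member. Alternatives were floors of 1 and 4 SDs or per array, scaling to the same median, quantile normalization, only probe sets with both values above the floor, a difference form of the fold and the brightest probe set of each gene. Promoters came from RefSeq (GRCr8). Python 3.11.15, numpy 2.4.6, pandas 2.3.3 and matplotlib 3.10.9 were used.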

Additional observations from a re-analysis of the deposited data

Results flagged for a closer look

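Several members differed in direction between the cell lines or between the times. None of these differences was tested, since each rests on 1 array per condition. Dusp1 was higher with serum in Rat1-Omomer cells and lower in Rat1-control cells, and in Rat1-Omomer over Rat1-control cells it was higher after serum and lower before it, with a ratio of folds of 6.62, 23.3 and 17.2 in probe sets 1, 2 and 3. Between Rat1-Omomer and Rat1-control cells, Dusp5 was 1.46-fold higher at 90 min and 1.66-fold lower at 0 min, a ratio of 2.42. Errfi1 probe set 1 was 1.42-fold higher at 90 min and at least 2.24-fold lower at 0 min, a ratio of at least 3.17. Dusp6 probe set 1 was 1.09-fold lower with serum in Rat1-Omomer cells and 1.74-fold higher in Rat1-control cells, a ratio of 1.89, and the first of these folds changed direction with median scaling.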

How the results depend on the processing

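No paired analysis was possible because each condition had 1 array, and for the same reason no array could be left out. With the brightest probe set of each gene only, the called probe sets numbered 3 in place of 5 for serum in Rat1-Omomer cells, 1 in place of 3 for Omomer over control at 90 min and 0 in place of 2 at 0 min, since probe sets 2 and 3 of Dusp1 were then left out. Of 266 alternative values of 39 member folds none reversed a called fold, and 3, all of Dusp6, changed sign: probe set 1 with serum in Rat1-Omomer cells (log2 fold 0.31 with median scaling, -0.12 as given) and probe set 2 in Rat1-Omomer cells at 90 min over Rat1-control cells at 0 min (0.33 with median scaling and 0.03 with quantile normalization, -0.09 as given). Of 103 alternatives of the 15 called folds, 2 ended a call. Errfi1 probe set 2 in Rat1-control cells was then at least 2.47-fold higher with a floor of 4 SDs, and Dusp1 probe set 1 was 2.65-fold higher in Rat1-Omomer than in Rat1-control cells at 90 min with quantile normalization. Of 163 alternatives of folds under 3-fold, 7 passed it: Dusp1 probe set 2 in Rat1-Omomer cells at 90 min over Rat1-control cells at 0 min, at 3.61-fold with median scaling, and 6 of Errfi1 with a floor of 1 SD or the difference form. These were probe set 2 in Rat1-Omomer cells at 90 min over the same cells at 0 min (3.82-fold and 7.10-fold) and over Rat1-control cells at 0 min (3.82-fold and 4.71-fold), and probe set 1 at 0 min, 3.01-fold lower in Rat1-Omomer cells with both. With a floor of 4 SDs the serum fold of Errfi1 probe set 1 in Rat1-Omomer cells was at least 8.60, in place of at least 17.2. At 0 min this probe set was then at least 1.12-fold lower in Rat1-Omomer than in Rat1-control cells. The ratio of serum folds, whose alternatives were chosen after seeing the data, was largest for Dusp1 probe set 2 under every one of them. Dusp1 probe set 3 ranked between 2nd and 7th, and probe set 1 between 16th (floor of 4 SDs) and 49th. Both had their lowest rank with the difference form. For Errfi1 probe set 1 the ratio was at least 1.59 with a floor of 4 SDs.

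The background counts moved more. For serum in Rat1-Omomer cells, 76 (floor of 4 SDs) to 243 (median scaling) probe sets were called higher, against 122. Lower calls numbered 190 (both values above the floor) to 789 (difference form), against 406. For Rat1-control cells the ranges were 48 to 134 higher, against 77, and 32 to 190 lower, against 72. For Omomer over control at 90 min they were 47 to 211 higher, against 90, and 183 to 621 lower, against 347, and at 0 min 4 to 53 higher, against 10, and 12 to 72 lower, against 20. For Rat1-Omomer cells at 90 min over Rat1-control cells at 0 min they were 74 to 253 higher, against 118, and 203 to 799 lower, against 420. Without the 5 EST series, a grouping made after seeing the data, 3.70% of probe sets in place of 9.64% were called lower with serum in Rat1-Omomer cells, 3.29% in place of 8.57% for Omomer over control at 90 min and 4.35% in place of 9.94% for Rat1-Omomer cells at 90 min over Rat1-control cells at 0 min.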
